A study of Mus musculus with 6 samples.

Results

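The 33 genes described here are interferon-stimulated genes of the mouse, taken by symbol from a list of known interferon targets and measured in hepatic stellate cells, the perivascular cells that store the liver's vitamin A. All 33 were listed among the 24346 gene symbols of each library, and 32 of them were among the 11614 genes that averaged at least 1 FPKM (fragments mapped to a gene, scaled to transcript length and to the mapped total of the library) over the 6 libraries and were tested. The remaining gene, Mx1, lay between 0.395 and 1.20 FPKM and was not tested.

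The study isolated stellate cells from wild type C57BL/6 mice of 35 weeks by liver perfusion and sorted those that lacked CD31 and CD45.2, surface proteins of endothelial cells and leukocytes, and carried CD49a. There were 3 liver sources: livers of mice on a normal diet, and the non-tumour and the tumour region of livers of mice fed a high fat diet. Cells of each source were isolated at 37 degrees or at 6 degrees, and RNA sequencing gave 1 library for each of the 6 combinations. The comparison named by the study is the one between isolation temperatures, and the layout also compares the liver sources. The labels do not say how many livers went into a library or whether libraries came from separate animals, so each p-value sets a source or temperature difference against the departure of the 6 libraries from a sum of both effects, and not against the spread between animals.

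Interferons are secreted proteins that signal through paired receptors at the cell surface. Type I interferons activate kinases of the JAK family, and a complex that contains STAT2 and IRF9 then binds interferon-stimulated response elements (ISRE) in gene promoters. Interferon gamma acts at gamma-activated sites (GAS), and the induced genes encode further transcription factors, sensors of foreign RNA, proteins that block viral replication and GTPases that attack intracellular microbes. Stellate cells turn into collagen-producing myofibroblasts in chronic liver injury, and they carry interferon receptors.

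The promoters of the members were searched for both kinds of element, and a few are shown as examples of how the matches lie. RefSeq promoters (GRCm38.p6, the build of the deposited mm10 data) were found for 23 of the 33 members, and not for Oas2, Zbp1, Mx2, Iigp1, Dhx58, Ifi27, Mx1, Parp14, Rtp4 and Usp18. In the 250 bases before the gene start, the ISRE pattern GAAANNGAAA, searched on both strands, was present in 12 of the 23 (52.2%) and in 3.46% of all 27025 genes with a promoter of that length. The GAS pattern TTCNNNGAA, also searched on both strands, was present in 6 of the 23 (26.1%) and in 8.13% of all 27025 genes. Bst2, Gbp7, Igtp and Oas1a held both patterns, Gbp2 held 1 ISRE match, and 9 of the 23, Irf7 and Ifi44 among them, held neither. Each sequence below is written 5′ to 3′ on the strand of its gene, with matches in capitals; a match to the ISRE pattern on the opposite strand appears as its reverse complement, and overlapping matches run together.
Irf1, chr11:53769904-53769952, plus strand, 1 GAS match: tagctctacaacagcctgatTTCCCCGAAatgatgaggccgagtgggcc
Ifit1, chr19:34640765-34640833, plus strand, 2 ISRE matches: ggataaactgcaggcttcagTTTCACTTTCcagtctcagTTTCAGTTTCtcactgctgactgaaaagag
Isg15, chr4:156200855-156200916, minus strand, 3 overlapping ISRE matches: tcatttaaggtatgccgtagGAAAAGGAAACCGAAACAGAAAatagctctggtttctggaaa
Ifit3, chr19:34583353-34583436, plus strand, 2 ISRE matches: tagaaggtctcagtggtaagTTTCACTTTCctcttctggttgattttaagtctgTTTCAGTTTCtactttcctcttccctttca
Gbp7, chr3:142530210-142530312, plus strand, 2 GAS matches and 1 ISRE match: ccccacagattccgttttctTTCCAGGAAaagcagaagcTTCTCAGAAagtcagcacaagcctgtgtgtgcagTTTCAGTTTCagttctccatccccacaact
Irf1 thus had a GAS match and no ISRE match in the 250 bases searched, and Ifit1, Ifit3 and Isg15 had 2 or 3 ISRE matches and no GAS match. A match is a description of these letters and does not show that a factor was bound.

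Stellate cell markers were abundant in all 6 libraries. The 12 stellate markers summed to between 23580 and 37843 FPKM. Lrat, the enzyme that esterifies retinol for storage, was at 335 to 538 FPKM in the 6 libraries. Dcn, Ecm1 and Colec11 made up most of each sum, at 11896, 8695 and 4096 FPKM in the non-tumour region library isolated at 6 degrees. In that library the endothelial markers Clec4g (1446 FPKM) and Gpihbp1 (1045 FPKM) were above Lrat (373 FPKM). A list of 15 endothelial markers summed to 102 FPKM in the normal diet library isolated at 37 degrees and to between 601 and 4459 FPKM in the others, and all 15 passed the test as lower at 37 degrees. A list of 15 macrophage and Kupffer cell markers summed to between 35.7 and 2227 FPKM and was highest in the tumour region library isolated at 6 degrees. Of its 14 tested genes, 8 were lower at 37 degrees and 7 were higher in tumour region than in normal diet libraries. Of all 11614 genes, 460 passed as lower at 37 degrees and 5.23% as higher in tumour region libraries. The stellate markers Lrat, Hgf and Hand2 passed as higher at 37 degrees. Rgs5 and Colec11 passed as higher in both high fat diet regions than in normal diet libraries, and Hand2 as lower in the tumour region. The 10 hepatocyte markers summed to 190 to 494 FPKM. Low FPKM values put the depth at an estimated 16300000 to 22900000 fragments per library, at which the members other than Mx1 rested on an estimated 193 to 68968 fragments each, and Mx1 on 31 to 78.

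The 33 genes were expressed over a wide range in every library (plot of levels by library). Ifitm3, a membrane protein that blocks virus entry by fusion, was the most abundant member, at 4535 FPKM in normal diet, 5276 in non-tumour and 6225 in tumour region cells isolated at 37 degrees, and at 3036, 5061 and 4534 FPKM after isolation at 6 degrees. Irf1, Iigp1, Bst2 and Ifit3 followed, with means over the 6 libraries of 233, 223, 215 and 212 FPKM. Rtp4 (mean 209 FPKM) and Ifi27 (mean 149 FPKM) were next. At the low end stood Parp14 (8.78 FPKM), Rsad2 (10.4 FPKM), Ifi44 (12.6 FPKM), Mx2 (12.8 FPKM) and Oas2 (14.7 FPKM), followed by Dhx58 at 16.2 FPKM. Mx1 and Mx2, GTPases that act against viruses, are known to be defective in common laboratory strains, and Mx2 is annotated as a polymorphic pseudogene.

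**Figure D1:**
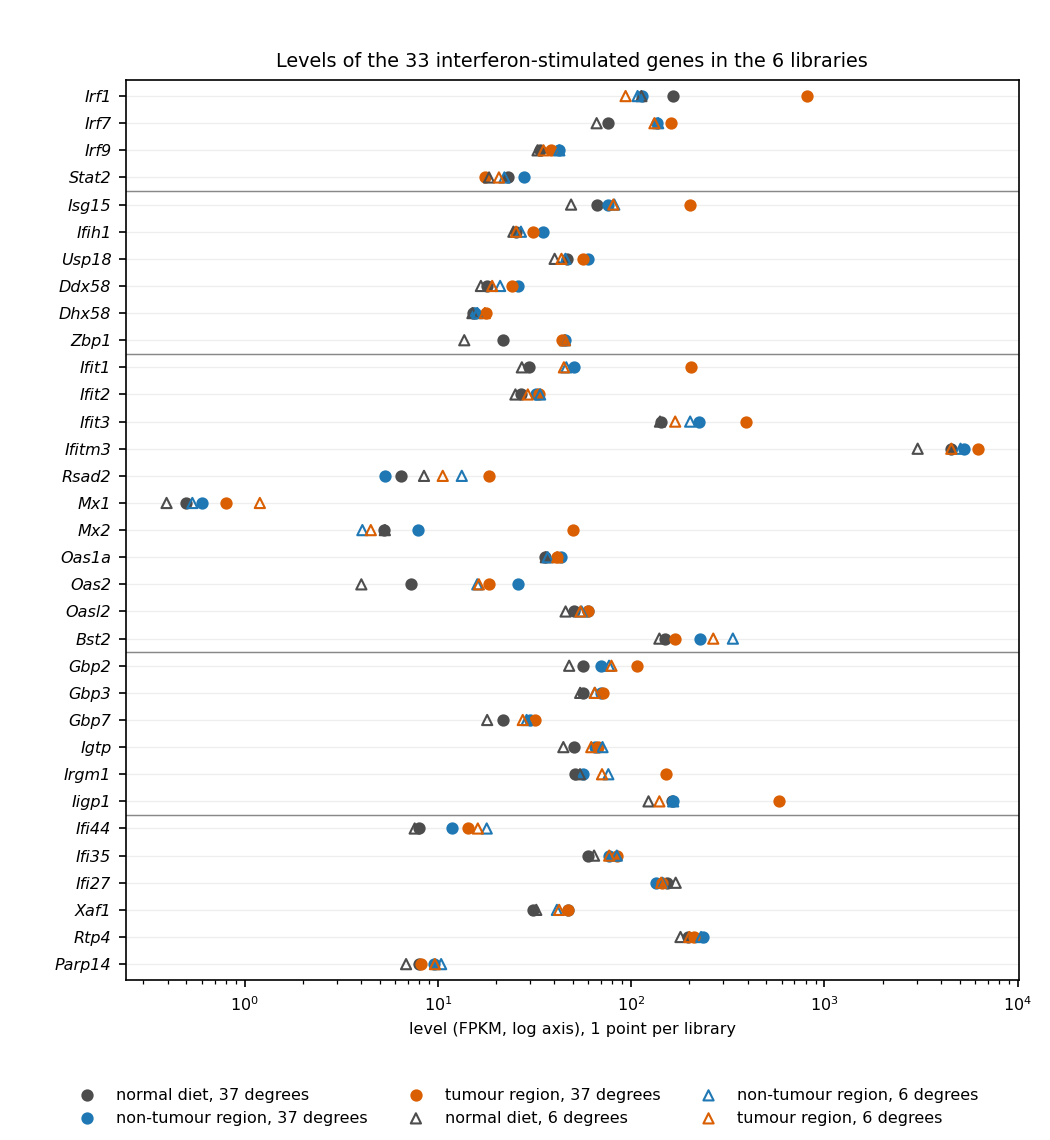
Levels of the 33 genes in FPKM on a log axis, 1 point per library, with grey lines between groups of genes by role. Filled circles are libraries isolated at 37 degrees and open triangles those isolated at 6 degrees; Irf1 (808 FPKM), Ifit1 (203 FPKM), Mx2 (49.8 FPKM) and Iigp1 (584 FPKM) of the tumour region library isolated at 37 degrees stand to the right of the other 5 libraries.

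Most members were higher in the high fat diet libraries than in the normal diet libraries, by moderate amounts. In 24 of the 32 members tested, all 4 high fat diet libraries lay above both normal diet libraries, as they did in 15.4% of all genes tested. Fitted over both temperatures on the log2(FPKM + 1) scale, which understates changes of low genes, the median member was 0.50 higher in tumour region than in normal diet libraries and 0.36 higher in non-tumour region libraries. The medians of all genes tested were 0.01 and 0.03. The members' tumour region median was 0.25 without the tumour region library isolated at 37 degrees and 0.34 after quantile normalization, and their non-tumour region median was 0.53 without the non-tumour region library isolated at 37 degrees. These 2 comparisons share the normal diet libraries and are not independent. In the tumour region comparison 6 of the 32 members passed as higher at an adjusted p under 0.05 (limma, Benjamini-Hochberg over all genes tested), as did 5.23% of all genes, and none passed as lower. In the non-tumour region comparison 3 passed as higher, as did 2.55% of all genes, and none as lower. At an unadjusted p under 0.05 there were 18 higher members in the tumour region comparison (15% of all genes) and 19 in the non-tumour region comparison (12.4% of all genes), and 0 lower in either.

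**Figure D2:**
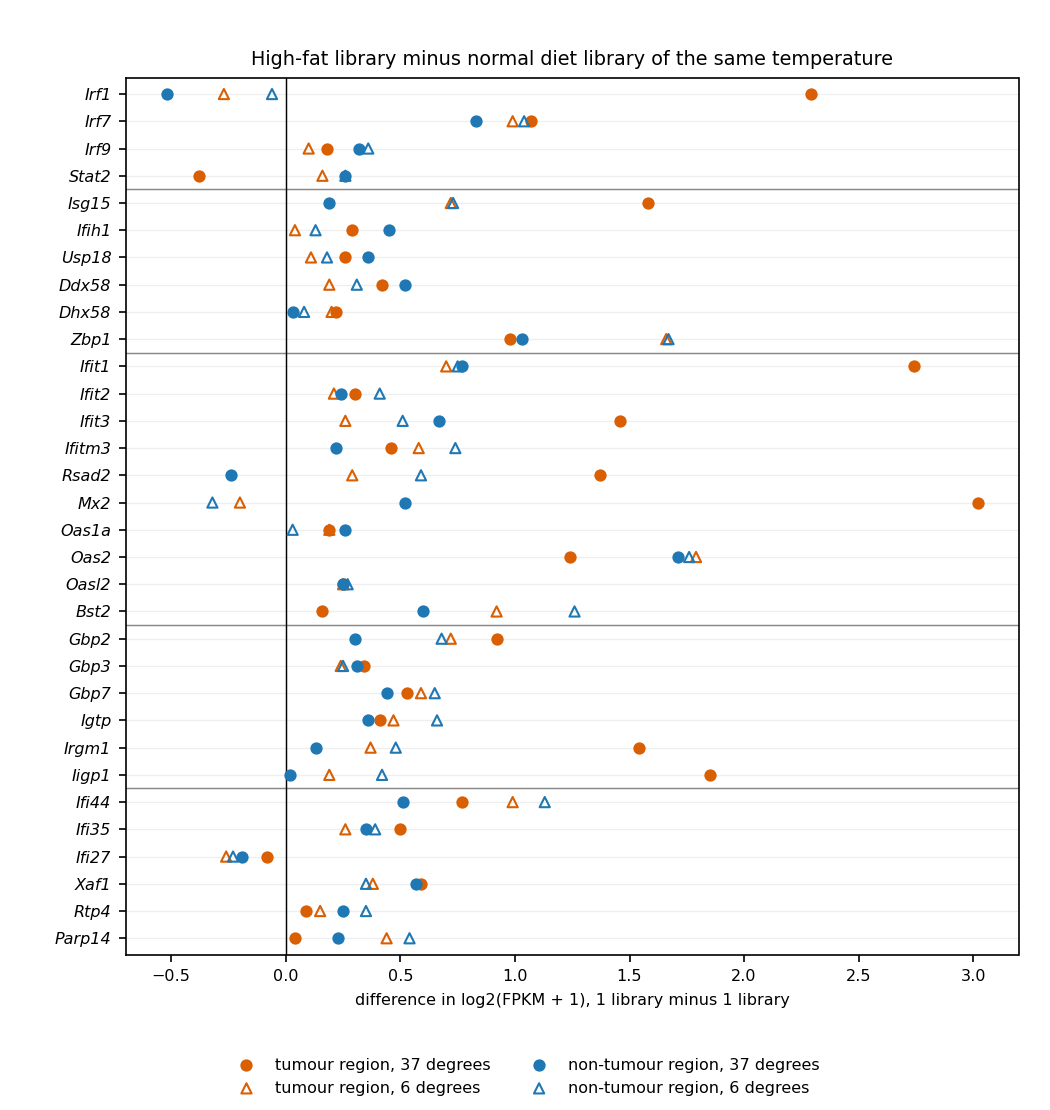
Difference in log2(FPKM + 1) between each high fat diet library and the normal diet library of the same temperature for the 32 members tested, 1 library against 1. Orange marks the tumour and blue the non-tumour region, filled circles 37 degrees and open triangles 6 degrees; Irf7, Zbp1 and Oas2 lie to the right of 0.8 in all 4 comparisons.

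Among the transcription factors, Irf7, the factor that amplifies type I interferon production, showed the clearest difference by source. Its levels were 76.0 FPKM in the normal diet library, 136 in the non-tumour and 161 in the tumour region library at 37 degrees, and 66.3, 138 and 132 FPKM at 6 degrees. All 4 high fat diet libraries were thus well above both normal diet libraries at either temperature. Irf7 rose by 1.03 ± 0.10 (SE) on the log2 scale in tumour region libraries (adjusted p = 0.0133, limma) and by 0.94 ± 0.10 in non-tumour region libraries (adjusted p = 0.0173). Irf9, the DNA-binding partner of STAT2, ran from 32.8 to 33.7 FPKM in normal diet and from 35.2 to 42.5 FPKM in high fat diet libraries and did not pass (adjusted p = 0.388 and 0.110). Stat2 ranged over 17.5 to 27.8 FPKM with no separation of the sources. Irf1, which is induced by interferon gamma and inflammatory cytokines, showed no separation either, since its levels outside the tumour region library isolated at 37 degrees were 93.6 to 164 FPKM with the normal diet library isolated at 37 degrees on top.

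Among the RNA sensors and the ISG15 system, Zbp1, a sensor of left-handed nucleic acids that can trigger necroptosis, followed Irf7. Zbp1 was at 21.7 and 13.7 FPKM in the normal diet libraries isolated at 37 and 6 degrees and at 43.9 to 45.5 FPKM in all 4 high fat diet libraries. The high fat diet libraries were thus nearly equal, and the normal diet libraries were lower and apart from each other. Zbp1 rose by 1.32 ± 0.19 in tumour region libraries (adjusted p = 0.0238, limma) and by 1.35 ± 0.19 in non-tumour region libraries (adjusted p = 0.0283). The RIG-I-like receptors, which detect viral RNA in the cytoplasm, were shifted little. For Ddx58 (RIG-I) the fitted differences were 0.30 and 0.41 (adjusted p = 0.171 and 0.110), for Ifih1 (MDA5) 0.17 and 0.29, and for Dhx58 (LGP2) 0.21 and 0.06. Dhx58 counted among the 24 members with separated groups although its normal diet libraries, at 15.1 and 15.2 FPKM, lay directly below the lowest high fat diet library at 15.6 FPKM. Ifih1, Oas1a, Rtp4 and Parp14 were also narrowly separated. Their highest normal diet libraries were at 25.3, 36.2, 197 and 7.98 FPKM. Their lowest high fat diet libraries were at 25.4, 37, 200 and 8.23 FPKM. Isg15, a ubiquitin-like protein that is attached to other proteins, was at 66.9 and 48.9 FPKM in the normal diet libraries and at 76.3 to 81.8 FPKM in 3 of the high fat diet libraries, with 202 FPKM in the tumour region library isolated at 37 degrees. Usp18, the protease that removes ISG15 and dampens receptor signalling, overlapped between the sources at 40.2 to 59.8 FPKM.

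Among the antiviral effectors, Oas2, an enzyme that makes the 2-5A activator of RNase L, had the largest source difference among members that passed. Oas2 was at 7.24 FPKM in the normal diet, 26.0 in the non-tumour and 18.4 in the tumour region library isolated at 37 degrees, and at 4.02, 16.0 and 16.3 FPKM in those isolated at 6 degrees. Every high fat diet library was more than double the normal diet library of its temperature. Oas2 rose by 1.51 ± 0.17 in tumour region libraries (adjusted p = 0.0152, limma) and by 1.74 ± 0.17 in non-tumour region libraries (adjusted p = 0.0136). Its relatives moved less: the fitted differences were 0.19 and 0.15 for Oas1a and 0.25 and 0.26 for Oasl2, and none passed. Bst2 (tetherin), which holds budding virus at the membrane, was at 150 and 140 FPKM in the normal diet libraries, at 228 and 336 FPKM in the non-tumour and at 168 and 266 FPKM in the tumour region libraries isolated at 37 and 6 degrees. It did not pass in either comparison (0.93 ± 0.20, adjusted p = 0.0767 for the non-tumour region, and 0.54 ± 0.20, adjusted p = 0.181 for the tumour region). Ifit1, which binds viral RNA that lacks a host cap, was at 29.5 and 27.2 FPKM in normal diet libraries and at 44.9 to 50.9 FPKM in 3 of the high fat diet libraries. Its fitted difference of 1.72 ± 0.53 in the tumour region comparison did not pass (adjusted p = 0.126), and the tumour region libraries themselves lay far apart at 203 and 44.9 FPKM. Ifit2 was at 25.2 to 27.0 FPKM in normal diet and 29.2 to 33.8 FPKM in high fat diet libraries, and Ifit3 at 141 to 142 and at 169 to 392 FPKM. Reads of Ifit3 may be split with its near-identical neighbour Ifit3b, which was at 34.2 to 91.5 FPKM. Rsad2 (viperin) and Mx2 overlapped between the sources, and Ifitm3 overlapped in that its normal diet library at 37 degrees (4535 FPKM) lay beside the tumour region library at 6 degrees (4534 FPKM).

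The interferon-inducible GTPases, which coat and disrupt the vacuoles of intracellular microbes, were higher in all 4 high fat diet libraries than in both normal diet libraries for every member except Iigp1. Gbp2, a guanylate-binding protein, was at 56.2 and 47.8 FPKM in the normal diet libraries isolated at 37 and 6 degrees, at 69.6 and 76.9 FPKM in the non-tumour and at 107 and 79.1 FPKM in the tumour region libraries. Gbp7, another of the family, was at 21.7 and 18.0 FPKM in normal diet, 29.8 and 28.8 FPKM in non-tumour and 31.8 and 27.5 FPKM in tumour region libraries. Both rose in tumour region libraries, Gbp2 by 0.82 ± 0.15 (adjusted p = 0.0425, limma) and Gbp7 by 0.56 ± 0.10 (adjusted p = 0.0402). In the non-tumour region their differences of 0.49 ± 0.15 and 0.54 ± 0.10 did not pass (adjusted p = 0.158 and 0.0564). Gbp3 was at 54.5 to 56.6 FPKM in normal diet and 64.9 to 71.7 FPKM in high fat diet libraries, and Igtp, an immunity-related GTPase, at 44.6 to 50.5 and 62.2 to 71.1 FPKM. The Gbp genes are close relatives, and how the authors' counting split reads between such copies is not given in the sources used here.

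Of the 6 remaining members, Ifi44, whose protein is induced by type I interferon, passed. Ifi44 was at 8.0 and 7.59 FPKM in the normal diet libraries isolated at 37 and 6 degrees, at 11.8 and 17.9 FPKM in the non-tumour and at 14.4 and 16.1 FPKM in the tumour region libraries. It rose by 0.88 ± 0.18 in tumour region libraries (adjusted p = 0.0496, limma), just under the threshold, and its 0.82 ± 0.18 in the non-tumour region did not pass (adjusted p = 0.0753). Xaf1, a pro-apoptotic protein, was at 31.1 to 32.3 FPKM in normal diet and at 41.3 to 47.3 FPKM in high fat diet libraries and narrowly missed the threshold in the tumour region comparison (0.49 ± 0.10, adjusted p = 0.0533). Ifi35, Rtp4 and Parp14 were separated between the diets by less, with fitted differences between 0.12 and 0.39. Ifi27 was the member whose 4 high fat diet libraries (135 to 145 FPKM) all lay below both normal diet libraries (154 and 170 FPKM), and its fitted differences of -0.17 and -0.21 did not pass (adjusted p = 0.295 and 0.254). The share of all genes with this order of the libraries was not counted.

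These calls rest on few libraries. In the tumour region comparison, 0 members passed when either normal diet library was left out, where 11 (without that isolated at 37 degrees) and 22 (6 degrees) of all 11614 genes passed as higher. Oas2 alone passed without the tumour region library isolated at 37 degrees (133 of all genes). Without the non-tumour region library isolated at 37 or 6 degrees 2 and 3 members passed (280 and 283 of all genes), and 9 passed without the tumour region library isolated at 6 degrees (446 of all genes). In the non-tumour region comparison, 0 members passed without any 1 of the 4 libraries compared. Of all genes, 28 passed as higher there without the normal diet library isolated at 6 degrees and 0 without each of the other 3. Without the tumour region library isolated at 37 or 6 degrees 5 members passed, with 335 and 336 of all genes.

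The levels of other cell types' markers differed between the liver sources as well. The endothelial list had a median fitted difference of 1.27 in the tumour and 1.94 in the non-tumour region comparison, and the macrophage list of 2.50 and -0.07. In bulk RNA, fewer cells of a type and less RNA per cell cannot be told apart. At 37 degrees the endothelial sum was 102 FPKM in normal diet, 651 in non-tumour and 601 in tumour region libraries. At 6 degrees it was 1830, 4459 and 2263 FPKM. The macrophage sum, in the same order, was 49.1, 35.7 and 892 FPKM at 37 degrees and 534, 630 and 2227 FPKM at 6 degrees. The part of these cell types in the members' source differences was not tested. The T cell and NK cell sum was between 1.16 and 12.7 FPKM, with Ncr1 at 0 in 5 of the 6 libraries. The plasmacytoid dendritic cell sum was between 25.9 and 32.7 FPKM, most of it from Tcf4 at 24.8 to 29.2 FPKM. Siglech, Ccr9, Cox6a2 and Klk1 were highest in the tumour region library isolated at 6 degrees (2.38, 0.767, 2.27 and 1.88 FPKM), and Pacsin1 was not.

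**Figure D3:**
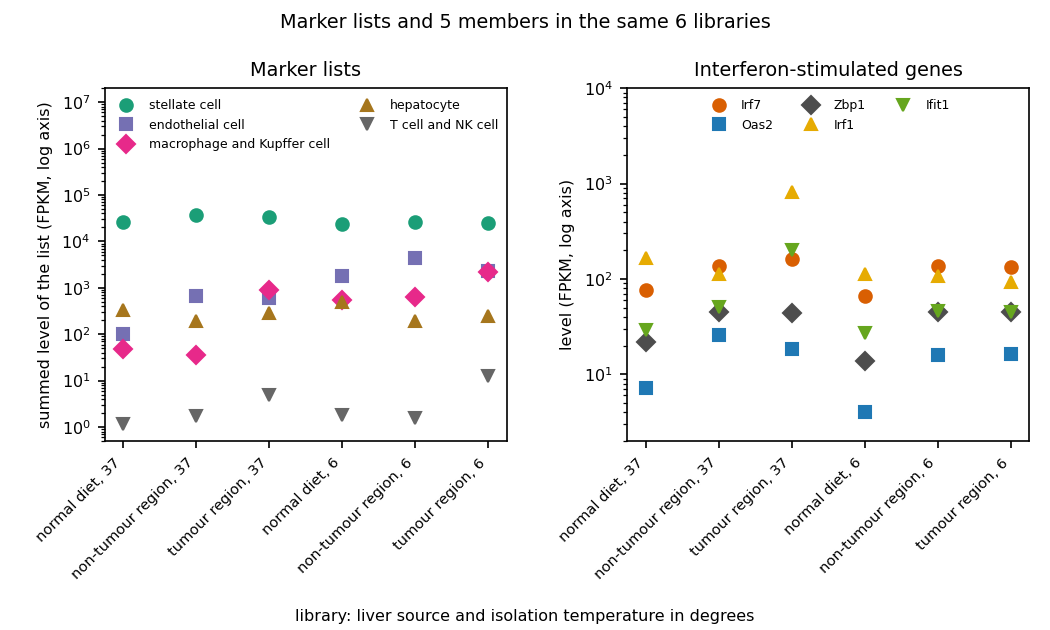
Summed FPKM of 5 marker lists (left) and FPKM of 5 of the members (right) in the same 6 libraries, both on log axes. The endothelial sum runs from 102 to 4459 FPKM and is lowest in the normal diet library isolated at 37 degrees, while Irf7, Oas2 and Zbp1 are low in both normal diet libraries and Irf1 and Ifit1 are highest in the tumour region library isolated at 37 degrees.

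A second pattern concerned a single library, that of the tumour region isolated at 37 degrees, in which a few members were far above every other library. It was at least 2-fold above each of the other 5 libraries on the log2(FPKM + 1) scale for 5 of the 32 members, Irf1, Ifit1, Isg15, Mx2 and Iigp1, and for 1.02% of all genes tested. Against the tumour region library isolated at 6 degrees it was at least 2-fold higher for 7 members, these 5 with Ifit3 and Irgm1, and for 2.09% of all genes. No member was 2-fold higher at 37 than at 6 degrees in the normal diet pair or in the non-tumour region pair, against 0.895% and 0.319% of all genes. As each side is 1 library, these differences have no replicate check.

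Irf1 was at 164 FPKM in normal diet, 114 in non-tumour and 808 in tumour region cells after warm isolation, and at 113, 108 and 93.6 FPKM after cold isolation, so that its top library was 4.93 times the next highest. Mx2, in the same order, was at 5.24, 7.94 and 49.8 FPKM after warm and at 5.32, 4.07 and 4.50 FPKM after cold isolation, 6.27 times the next highest. Ifit1 was at 29.5, 50.9 and 203 FPKM after warm and at 27.2, 46.2 and 44.9 FPKM after cold isolation, 3.98 times the next highest. Of these 3, Irf1 had the normal diet library at 37 degrees as its second highest, whereas Ifit1 and Mx2 had the non-tumour region library at 37 degrees. Iigp1, an immunity-related GTPase, was at 162 FPKM in normal diet, 164 in non-tumour and 584 in tumour region cells isolated at 37 degrees, and at 123, 165 and 140 FPKM after isolation at 6 degrees. Isg15, in the same order, was at 66.9, 76.3 and 202 FPKM after warm isolation and at 48.9, 81.8 and 80.9 FPKM after cold isolation. For both, the other tumour region library lay within the range of the non-tumour and normal diet libraries. Ifit3 stood apart by less, at 142, 225 and 392 FPKM after warm and 141, 202 and 169 FPKM after cold isolation, 1.74 times the next highest library. Irgm1 was at 152 FPKM and at most 76.2 FPKM elsewhere, 1.99 times the next highest.

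This library was the highest of the 6 for 16 of the 32 members, as it was for 19.3% of all genes tested. Rsad2, at 18.3 FPKM, was 1.38 times the next highest, and Gbp2, Ifitm3, Irf7, Gbp7, Gbp3, Dhx58, Xaf1 and Ifi35 were at most 1.35 times it. The other 16 members did not exceed the highest of the other libraries. Stat2 was lowest there (17.5 FPKM), Irf9 (38.4 FPKM), Usp18 (56.1 FPKM), Oasl2 (60.1 FPKM) and Ifit2 (33.5 FPKM) lay at or below the highest of the other libraries, and Bst2 (168 FPKM) was at 0.499 times it. The 6 members that passed in the source comparisons were between 0.710 (Oas2) and 1.35 (Gbp2) times the highest of the other 5 libraries, with Irf7 at 1.17 and Zbp1 at 0.963. The median member was 0.00 above the highest of the other 5 libraries on the log2 scale, and the median of all genes tested was -0.24. In this library the macrophage markers summed to 892 FPKM and the endothelial markers to 601 FPKM. The tumour region library isolated at 6 degrees had 2227 and 2263 FPKM. At 37 degrees the same sums were 49.1 and 102 FPKM in the normal diet library and 35.7 and 651 FPKM in the non-tumour region library. The part of these cell types in the result was not tested.

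**Figure D4:**
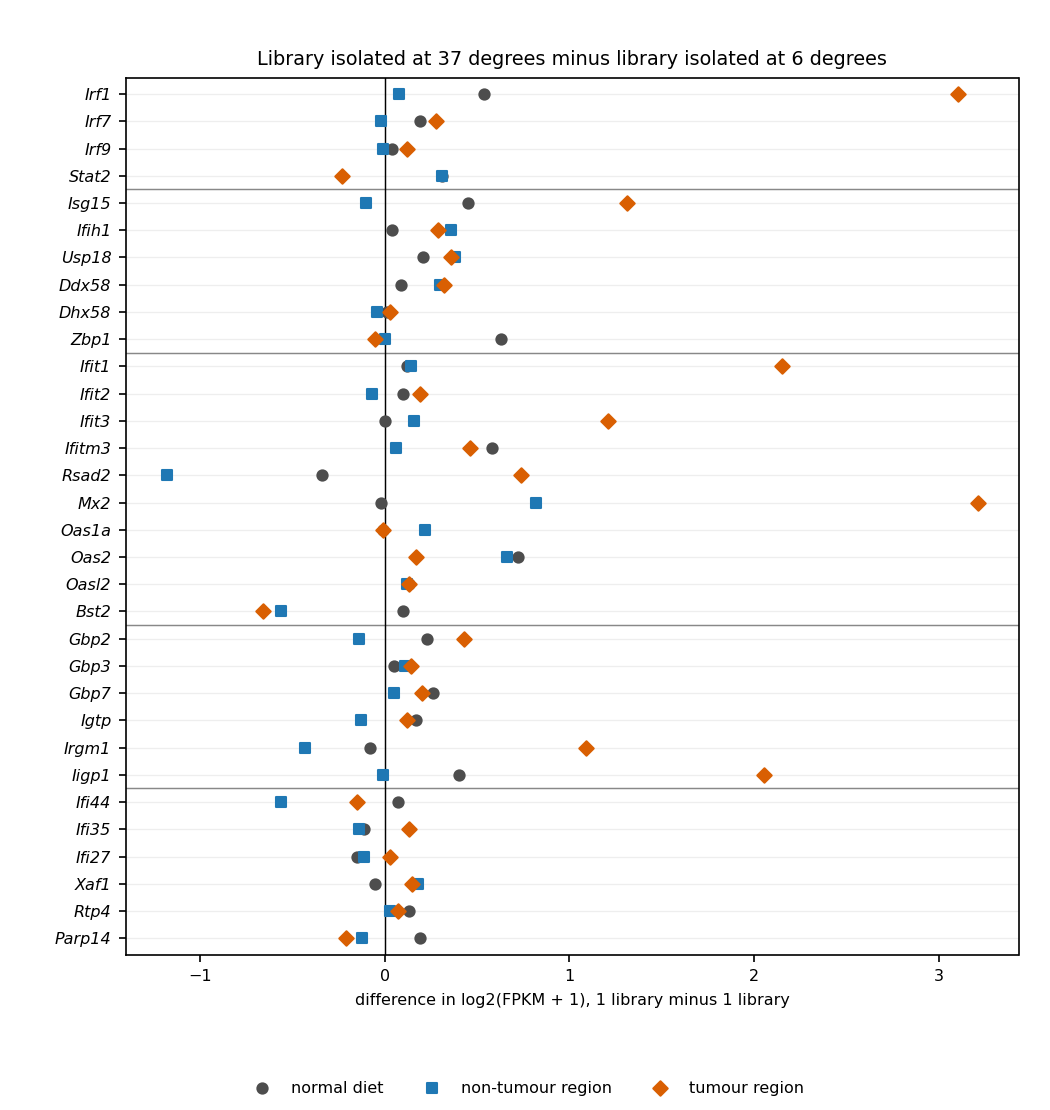
Difference in log2(FPKM + 1) between the library isolated at 37 degrees and the library isolated at 6 degrees within each liver source, for the 32 members tested. Orange diamonds (tumour region) for Irf1, Mx2, Ifit1 and Iigp1 lie beyond 2, while normal diet (grey) and non-tumour region (blue) points lie below 1 for all members.

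Across the 3 sources, isolation temperature gave no member that passed. Of the 32 members, 0 passed in either direction (limma, Benjamini-Hochberg over all genes tested), against 4.31% of all genes, and at an unadjusted p under 0.05 there were 4 higher at 37 degrees (Ifitm3, Oas2, Usp18 and Ddx58), against 8.33% of all genes, and 0 lower, against 11.8% of all genes. The largest fitted differences were those of the genes above, 1.34 ± 0.62 for Mx2 (adjusted p = 0.315), 1.24 ± 0.60 for Irf1 (adjusted p = 0.331), 0.81 ± 0.40 for Iigp1 (adjusted p = 0.342), 0.80 ± 0.43 for Ifit1 (adjusted p = 0.374) and 0.55 ± 0.27 for Isg15 (adjusted p = 0.333). For each of the 5 the tumour region pair differed far more than the other pairs. For Irf1 the difference between 37 and 6 degrees was 3.10 in the tumour region, 0.54 in normal diet and 0.08 in the non-tumour region, and for Mx2 it was 3.21, -0.02 and 0.82. The difference between the pairs could not be tested with 1 library in each combination. The closest to the threshold was Usp18, with 46.6, 59.8 and 56.1 FPKM after isolation at 37 degrees (normal diet, non-tumour, tumour region) against 40.2, 45.7 and 43.6 FPKM after isolation at 6 degrees (0.32 ± 0.07, adjusted p = 0.105). For Usp18 and Irf1 the lowest 37-degree library lay barely above the highest 6-degree library, at 46.6 against 45.7 FPKM and 114 against 113 FPKM. How often this held over all genes was not counted. The median temperature difference was 0.14 over the members and 0.01 over all genes tested. Within sources it was 0.11 in normal diet, 0.01 in the non-tumour region and 0.18 in the tumour region. Rsad2 had opposite signs, at 18.3 against 10.6 FPKM (37 against 6 degrees) in the tumour region and 5.31 against 13.3 FPKM in the non-tumour region.

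In the fit of all 6 libraries, the comparison of tumour with non-tumour region gave no passing member. Of the 32 members 0 passed in either direction (limma), against 0.00861% of all genes, which is 1 gene, and 0 had an unadjusted p under 0.05, against 9.76% of all genes. The median difference was 0.02 over the members and -0.02 over all genes tested. The largest differences, 1.31 ± 0.76 for Mx2 (adjusted p = 0.605), 1.30 ± 0.73 for Irf1 (adjusted p = 0.600), 0.97 ± 0.53 for Ifit1 (adjusted p = 0.592), 0.80 ± 0.49 for Iigp1 (adjusted p = 0.627) and 0.69 ± 0.33 for Isg15 (adjusted p = 0.570), came from the pair at 37 degrees. At 6 degrees the same genes differed by 0.12, -0.20, -0.04, -0.23 and -0.02. Without the tumour region library isolated at 6 degrees the differences of Irf1 and Ifit1 were 2.70 and 1.98. Without the tumour region library isolated at 37 degrees the values of Irf1, Mx2, Ifit1 and Iigp1 were below 0.

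The rest of the interferon pathway was read from lists of genes that are not members. Of 10 interferon genes none was tested, and all were listed at 0 in every library, Ifnb1 and Ifng included, except Ifna2 at 0.389 FPKM in the normal diet library isolated at 37 degrees and 0.128 FPKM in the tumour region library isolated at 6 degrees. Transcripts of the receptors were present. Ifnar2, a chain of the type I interferon receptor, was at 410 FPKM in normal diet, 636 in non-tumour and 620 in tumour region cells isolated at 37 degrees, with 418, 527 and 493 FPKM after isolation at 6 degrees, while its partner Ifnar1 was at 14.3 to 19.7 FPKM. Of 5 receptor chains tested, Ifngr2, a chain of the interferon gamma receptor, rose in tumour region libraries (0.50 ± 0.10, adjusted p = 0.0490, limma), and Ifngr1 (0.53 ± 0.11, adjusted p = 0.0602), Ifnar2 (0.42 ± 0.12, adjusted p = 0.104) and Ifnar1 (0.23 ± 0.10, adjusted p = 0.250) did not pass. Of 9 transducers and other interferon regulatory factors, 2 rose in tumour region libraries (Irf5 and Stat3), Stat3 also rose in non-tumour region libraries and Jak1 was the 1 that fell at 37 degrees (-0.51 ± 0.09, adjusted p = 0.0474). Stat3 is named after its values had been seen. Among all genes tested, 5.23% rose in tumour region and 2.55% in non-tumour region libraries, and 4.31% passed for temperature in either direction.

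In the largest list, 61 further interferon-stimulated genes of which 56 were tested, 15 rose in tumour region libraries (5.23% of all genes), 6 rose in non-tumour region libraries (2.55% of all genes) and none fell in either. The list's median differences were 0.38 and 0.32, against 0.01 and 0.03 over all genes tested. For temperature 1 of the 56 passed, against 4.31% of all genes in either direction. It was Ifitm1, which rose by 0.44 ± 0.07 at 37 degrees (adjusted p = 0.0443, limma). In non-tumour region libraries the largest of the passing differences were 1.45 ± 0.22 for Slfn2, a schlafen protein, 1.08 ± 0.11 for Gbp4, another guanylate-binding protein, and 0.89 ± 0.10 for the exonuclease Isg20. Gbp4 was at 13.8 and 14.9 FPKM in normal diet and at 25.0 to 33.1 FPKM in high fat diet libraries, and Isg20 at 22.4 and 26.4 FPKM and at 45.2 to 47.8 FPKM, both like Irf7 in that the 2 diets did not overlap. In the tumour region the largest passing differences were 2.33 ± 0.20 for Ptpn6, a phosphatase of the negative regulator list that is abundant in leukocytes, 1.99 ± 0.22 for Ifi205, 1.77 ± 0.22 for Slfn2, 1.55 ± 0.20 for Epsti1, 1.35 ± 0.26 for Irf5 and 1.04 ± 0.18 for Ifi47, an immunity-related GTPase. Of the 9 negative regulators, Ptpn6 and Samhd1, which breaks down nucleotides needed by viruses, were the 2 that rose in tumour region libraries. Samhd1, named after its values had been seen, rose by 1.02 ± 0.12 there and also rose in non-tumour region libraries (0.68 ± 0.12, adjusted p = 0.0442), and Ptpn6 fell by 1.79 at 37 degrees (adjusted p = 0.0162). Ptpn6, Slfn2, Samhd1, Irf5 and Epsti1 were highest in the tumour region library isolated at 6 degrees (33.1, 44.3, 25.7, 17.8 and 4.86 FPKM), which also had the highest macrophage sum, whose part in these results was not tested. Of 9 genes of nucleic acid sensing tested, Tmem173 (STING), the adaptor of cytosolic DNA sensing, was the 1 that rose, by 0.74 ± 0.11 in tumour region libraries (adjusted p = 0.0269) and 0.78 ± 0.11 in non-tumour region libraries (adjusted p = 0.0309). It was at 29.7 and 26.2 FPKM in normal diet and at 45.8 to 51.2 FPKM in high fat diet libraries.

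Of the 88 pathway genes on these lists that were tested, 6 (6.82%) were at least 2-fold above every other library in the tumour region library isolated at 37 degrees, against 1.02% of all genes, and they are named here after their values had been seen. Socs1, which blocks JAK kinases and is itself induced by interferon, was at 130 FPKM there and at 4.94 to 7.68 FPKM elsewhere. Cxcl10, a chemokine for T cells, was at 888 FPKM and at 43.5 to 130 FPKM elsewhere. The others were Socs3, Trex1, Myd88 and Ifi205, by 1.10, 1.44, 1.15 and 1.09 on the log2 scale over the next highest library.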

How the data were processed

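Total RNA of sorted cells was sequenced as 1 library per group. The authors aligned the reads to mm10 and deposited FPKM values per gene symbol; the submitters' processing notes name TopHat2 2.1.1, Bowtie2 and Cuffdiff 2.2.1, and their settings, the annotation and the use of strand are not given in these sources. Reads of overlapping genes, such as Igtp and Irgm2 or Irf7 and Phrf1, cannot be told apart where strand was not used. From these values, log2(FPKM + 1) was fitted, for genes averaging 1 FPKM or more, with limma 3.58.1 (R 4.3.3) as liver source plus temperature, with an intensity trend, 2 residual degrees of freedom and two-sided Benjamini-Hochberg adjusted p-values over 11614 genes, called under 0.05. The temperature difference of the fit was tested on simulated data with normal noise, in which each gene's spread was capped at the median. The simulation held no temperature effect that differed between sources, and it did not test the source comparisons. FPKM deposits give no counts, so depth was estimated from the steps of low values with GENCODE M21 transcript lengths. Promoters are RefSeq's. The values of 1 pathway gene are not reported here. The members and lists were chosen with earlier results of these data known. Values are given for every member that passed and, per comparison, the 5 with the largest differences, the 5 with the highest mean, at most 6 passing genes of the pathway lists and, in any case, the receptor chains; other pathway genes named were chosen after their values were seen. Alternatives were the pseudocount (0.1), the filter (5 FPKM or none), median-ratio and quantile scaling, no trend, no source term, fewer libraries and each library left out.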

Additional observations from a re-analysis of the deposited data

Results flagged for a closer look

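Rsad2 (viperin), an antiviral enzyme, went opposite ways with isolation temperature in the 2 regions of high fat diet livers. Its difference between 37 and 6 degrees on the log2(FPKM + 1) scale was 0.74 in the tumour region and -1.18 in the non-tumour region, each from 1 library against 1. The difference between the regions was not tested.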

How the results depend on the processing

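In the tumour against normal diet comparison the count of 6 members was 3 without the intensity trend, 2 with no filter on low values and 1 (Irf7) with only the 4 libraries of the 2 sources, and from 0 to 9 with 1 library left out. In the non-tumour against normal diet comparison the count of 3 was 5 with only the 4 libraries of the 2 sources and from 0 to 5 with 1 library left out. In the tumour against non-tumour comparison with 1 library left out, Ifit1 ranged from -0.05 to 1.98 and Iigp1 from -0.13 to 1.73 on the log2 scale. Irf1 ranged from -0.09 to 2.70 and Mx2 from -0.09 to 2.71. Each lowest value was without the tumour region library isolated at 37 degrees. Among all genes, 607 passed as higher in the main tumour against normal diet fit. That count was 502 without the intensity trend, 284 of 18491 with no filter and 278 with only the 4 libraries. In the non-tumour against normal diet comparison 296 of all genes passed as higher in the main fit and 336 with only the 4 libraries. Fewer libraries leave fewer degrees of freedom. For the other alternatives the cause was not tested. Temperature gave 0 members under every alternative run. With no filter (18491 genes) and without the normal diet pair, 0 of all genes passed either, so those runs say nothing about the members. Of all genes, 9 passed as higher and 2 as lower at 37 degrees without the non-tumour region pair. Without the tumour region pair these counts were 8 and 340, and after quantile normalization 33 and 385. Of the 13 alternatives, Irf7 and Oas2 passed in 10 each, Zbp1 in 5, Gbp2 and Gbp7 in 3 each and Ifi44 in 2 in the tumour against normal diet comparison, Irf7 and Oas2 passed in 9 each and Zbp1 in 8 in the non-tumour against normal diet comparison, and no called member changed sign. The 24 members with separated diets were 25 after median-ratio scaling and 17 after quantile normalization, alternatives chosen after seeing the data; leaving out a library, which can only keep or add members, gave 24 to 27. Quantile normalization also moved the calls over all genes in the tumour against normal diet comparison from 607 higher and 324 lower to 459 and 398. The 5 members 2-fold above all other libraries in the tumour region library isolated at 37 degrees remained the same 5 under both scalings and a pseudocount of 0.1 FPKM. The groups carry no replicate numbers. The source term pairs the 37 and 6 degree libraries of a source. Without it temperature gave 0 members and 0 of all 11614 genes, so that run says nothing about the members. Depth limits Mx1 most.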
